A study of Mus musculus with 1627 samples.

Results

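The TNF receptor family and TRAF genes described here are 10 genes of the 23725 in the count table, chosen by symbol and all found in the table: the receptors Tnfrsf4, Tnfrsf18, Tnfrsf9, Tnfrsf25, Tnfrsf1b and Tnfrsf1a, the ligand Tnfsf8, the adaptors Traf1 and Traf2, and the inhibitor of apoptosis gene Birc3. Tnfsf8 encodes CD30 ligand and Birc3 encodes cIAP2, so neither is a receptor or a TRAF. The cells were Foxp3-expressing regulatory T cells (Tregs), sorted from B6 Foxp3-Ires-Gfp reporter mice, males aged 8 months, 4 days after skeletal muscle had been injured with cardiotoxin, which kills muscle fibres. Of 1627 cells in all, 1368 were from the injured muscle, 694 of them in muscle library 2 and the others in muscle library 1. The remaining cells were from the spleen, in 1 library, of mice with the same reporter, injury, age and sex. All groups were sorted alike as live cells positive for the T cell receptor beta chain, CD4 and the reporter, but muscle was digested with collagenase and dispase and spleen was dissociated mechanically. The sources used here do not give the number of animals or pools behind a library. Single cells were encapsulated by inDrops, which tags each captured poly(A) transcript with a unique molecular identifier (UMI), so that molecules rather than reads are counted.

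Members of the TNF receptor superfamily bind trimeric ligands of the TNF family at the cell surface and pass the signal on through TRAF proteins, which recruit the cIAP ubiquitin ligases and lead to NF-kB and MAP kinase signalling. On T cells OX40 (Tnfrsf4), GITR (Tnfrsf18), 4-1BB (Tnfrsf9) and DR3 (Tnfrsf25) are costimulatory receptors, and TNFR2 (Tnfrsf1b) is known to support the expansion and stability of Tregs. TNFR1 (Tnfrsf1a) is the widely expressed TNF receptor with a death domain. Traf1, Birc3 and several NF-kB genes are themselves known targets of NF-kB.

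Muscle libraries 1 and 2 summed to 1533277 and 1916496 UMIs and the spleen library to 982570, and levels are given as CPM, the UMIs of a gene per 1000000 UMIs of its library. The median cell held 1976 and 2488 UMIs in the muscle libraries and 3541 in spleen, so that shares of cells with a UMI were also computed after each cell had been thinned at random to 1000 UMIs. The 26 and 7 muscle cells under that depth were left out of thinned values, and 0 spleen cells were. Foxp3, the factor that defines Tregs, stood at 554.4 and 551.5 CPM in the muscle libraries and 368.4 CPM in spleen. Cd4 stood at 553.7 and 597.97 CPM in the muscle libraries and 383.7 CPM in spleen. Cells of the muscle libraries shared 11 barcodes, muscle library 1 shared 1 with spleen and muscle library 2 shared 0 with spleen. Ribosomal protein genes took 13.7% and 14.04% of all muscle UMIs and 22.8% of all spleen UMIs, which bears on every CPM below. Since the labels name no animal, each tissue counts as 1 sample, the tissues were compared without a test, and p-values are absent throughout. The 95% intervals are exact and reflect counting error alone, and UMIs of a gene cluster within cells, which they leave out. The gap between the muscle libraries is the only spread between samples in this design.

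Of the 10 genes 6 lie on chromosome 4 of the mouse genome, where 6.23% of the 7368 measured genes with a position lie. By GENCODE M21 on GRCm38, Tnfrsf4 spans chr4:156013843-156016612 and Tnfrsf18 spans chr4:156026164-156028895, both on the forward strand and 9551 bases apart. Tnfrsf9 (chr4:150914562-150946102) and Tnfrsf25 (chr4:152115934-152120119) are on the forward strand, and Tnfrsf1b (chr4:145213463-145246870) and Tnfsf8 (chr4:63831308-63861347) are on the reverse strand. Traf1 (chr2:34941750-34961772), Traf2 (chr2:25517982-25546940) and Birc3 (chr9:7848699-7873186) are on the reverse strand of chromosomes 2 and 9, and Tnfrsf1a (chr6:125349362-125362484) is on the forward strand of chromosome 6. Each is annotated as protein coding. On the opposite strand Tnfrsf9 overlaps Camta1, which had 46 and 36 UMIs in the muscle libraries and 21 in spleen, against 2090, 2151 and 428 for Tnfrsf9. Tnfrsf18 and Traf2 overlap the antisense genes Gm16008 and Gm13433, and the strand setting of the authors' counting is not given in the sources used here, so reads of those partners cannot be told apart from theirs.

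The sequences shown next precede the transcription starts of the 5 genes that passed the 2-fold rule described below. They are RefSeq sequences of GRCm38.p6, written 5′ to 3′ in the direction of transcription. Of the 250 bases before a start, the longest part that GENCODE annotates as no exon is printed, since the windows of Tnfrsf4, Tnfrsf18 and the downstream start of Tnfrsf9 run into annotated exons. Capitals mark a match to TTCNNNGAA, the core of STAT sites.
Tnfrsf4, chr4:156013611-156013694: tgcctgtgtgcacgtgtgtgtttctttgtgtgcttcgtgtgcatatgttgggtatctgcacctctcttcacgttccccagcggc
Tnfrsf18, chr4:156026072-156026163: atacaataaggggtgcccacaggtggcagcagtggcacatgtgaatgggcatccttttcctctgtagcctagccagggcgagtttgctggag
Tnfrsf9, upstream start, chr4:150919905-150920154: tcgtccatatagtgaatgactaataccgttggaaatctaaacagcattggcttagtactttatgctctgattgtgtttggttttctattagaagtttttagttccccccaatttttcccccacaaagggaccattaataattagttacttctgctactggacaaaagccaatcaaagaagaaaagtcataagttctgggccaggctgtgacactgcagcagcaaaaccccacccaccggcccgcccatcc
Tnfrsf9, downstream start, chr4:150927749-150927917: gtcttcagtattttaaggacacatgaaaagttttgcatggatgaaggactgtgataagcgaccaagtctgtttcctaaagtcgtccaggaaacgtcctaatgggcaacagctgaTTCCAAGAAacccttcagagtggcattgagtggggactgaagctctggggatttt
Tnfrsf1b, chr4:145246871-145247120, reverse strand: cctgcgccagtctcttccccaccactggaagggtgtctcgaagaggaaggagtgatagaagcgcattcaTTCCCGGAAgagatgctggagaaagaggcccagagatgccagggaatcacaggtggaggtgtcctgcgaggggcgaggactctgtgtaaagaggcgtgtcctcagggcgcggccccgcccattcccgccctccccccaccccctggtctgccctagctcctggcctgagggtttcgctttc
Traf1, chr2:34961773-34962022, reverse strand: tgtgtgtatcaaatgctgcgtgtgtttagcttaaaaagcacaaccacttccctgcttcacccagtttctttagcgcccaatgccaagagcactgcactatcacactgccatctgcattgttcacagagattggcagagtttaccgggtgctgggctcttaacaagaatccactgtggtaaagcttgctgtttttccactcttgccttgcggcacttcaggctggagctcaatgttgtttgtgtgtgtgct

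The motifs were searched on both strands in the whole 250 bases before each of the 12 RefSeq starts of the 10 genes and before all 32851 RefSeq starts. TTCNNNGAA was found in 5 of the 12 windows, those of Tnfrsf18, Tnfrsf9, Tnfrsf1b, Tnfrsf1a and Tnfrsf25, and in 7.02% of all windows. The Tnfrsf18 match lies 99 bases before its start, in the exonic part that is not printed. A core of NF-kB sites, GGG followed by any 2 bases, TT, any 1 base and CC, was found in 2 of the 12, of Tnfrsf9 and Tnfrsf25, and in 4.11% of all. The Tnfrsf9 window holds it before its downstream start, at chr4:150927944-150927973, where overlapping matches are in capitals: cacagagcagctGGGGATTTCCCaggaggc. TGANTCA, the core of AP-1 sites, was found in 1 of the 12, of Tnfrsf9, and in 6.75% of all. These matches are letters in a window, the motifs were chosen with the sequences in view, and no binding was measured here.

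Tregs of the injured muscle carried more transcript of OX40, GITR, 4-1BB, TNFR2 and Traf1 than Tregs of the spleen. Of the 10 genes, 9 had at least 50 UMIs over the 3 libraries and could be called, and 5 stood 2-fold or more above spleen in each muscle library: Tnfrsf4, Tnfrsf18, Tnfrsf9, Tnfrsf1b and Traf1. By the same rule 7.47% of the 7617 genes with enough UMIs were called. In the other direction 0 of the 9 were called, against 3.45% of all, by a rule of size without a test. With ribosomal protein genes left out of the totals the shares of all genes became 5.63% higher and 5.36% lower. The median log2 fold of the 9 genes was 1.12, and 1.001 over all 10, against 0.05 over all measured genes. Together the 10 genes made up 0.5004% and 0.511% of all muscle UMIs and 0.2005% of all spleen UMIs.

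**Figure D1:**
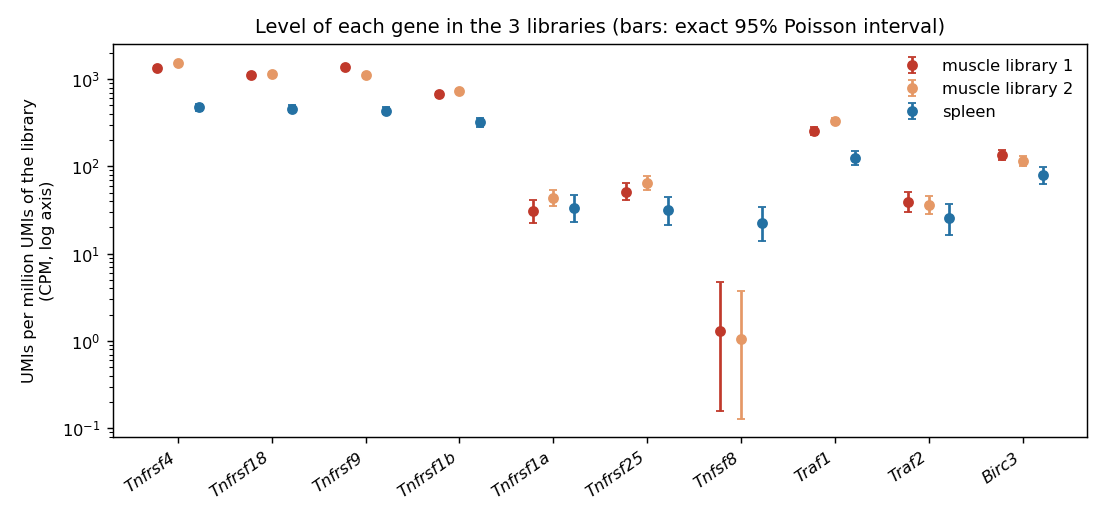
Level of each of the 10 genes in muscle library 1, muscle library 2 and spleen, in CPM on a log axis, with exact 95% Poisson intervals. Tnfrsf4, Tnfrsf18 and Tnfrsf9 lie above 1000 CPM in both muscle libraries and below 500 CPM in spleen, whereas Tnfsf8 lies near 1 CPM in both muscle libraries and at 22.4 CPM in spleen.

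Tnfrsf4, which encodes OX40, stood at 1343 and 1519 CPM in the muscle libraries and 475.3 CPM in spleen. The fold was 2.83 (2.55 to 3.13) for muscle library 1 and 3.20 (2.90 to 3.53) for muscle library 2. Both muscle libraries lay well above spleen, and the muscle libraries themselves differed by 1.13-fold (1.07 to 1.20), library 2 over library 1. The transcript was seen in 69.9% and 72.5% of muscle cells and 51.4% of spleen cells. In cells thinned to 1000 UMIs the shares were 56.0% (52.1 to 59.9) and 58.7% (54.9 to 62.4) in the muscle libraries and 23.9% (18.9 to 29.6) in spleen, so the gap was wider at equal depth.

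Tnfrsf18, which encodes GITR and is the nearest of the 10 genes to Tnfrsf4 on the chromosome, stood at 1115 and 1144 CPM in the muscle libraries and 455.9 CPM in spleen. Its folds of 2.44 (2.20 to 2.72) and 2.51 (2.27 to 2.78) were closer to each other than those of Tnfrsf4, and the ratio between the muscle libraries was 1.03 (0.96 to 1.09). Thinned cells held it in 56.6% and 55.7% of the muscle libraries and 25.9% of spleen.

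Tnfrsf9, which encodes 4-1BB, stood at 1363 and 1122 CPM in the muscle libraries and 436 CPM in spleen, with folds of 3.13 (2.82 to 3.48) and 2.58 (2.32 to 2.86). Muscle library 1 was the higher of the muscle libraries here, in contrast to Tnfrsf4, with a ratio of library 2 over library 1 of 0.823 (0.775 to 0.875). Its UMIs were unevenly spread over cells. The tenth of cells with the most Tnfrsf9 UMIs held 51.7% and 51.2% of them in the muscle libraries and 70.8% in spleen, against 34.2%, 37.2% and 47.5% for Tnfrsf18. Thinned cells held Tnfrsf9 in 46.9% and 42.1% of the muscle libraries and 22.8% of spleen.

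Tnfrsf1b, which encodes TNFR2, stood at 672 and 727 CPM in the muscle libraries and 320.6 CPM in spleen. Its folds of 2.10 (1.85 to 2.38) and 2.27 (2.01 to 2.57) lay near the 2-fold threshold, and thinned cells held it in 43.5% and 40.2% of the muscle libraries and 19.7% of spleen. The other TNF receptor did not share this. Tnfrsf1a, which encodes TNFR1, stood at 30.7 and 43.8 CPM in the muscle libraries and 33.6 CPM in spleen, on 47, 84 and 33 UMIs. Its folds of 0.913 (0.573 to 1.47) and 1.31 (0.863 to 2.02) lay on either side of 1, and both intervals include 1, so no difference was detectable at this depth.

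Tnfrsf25, which encodes DR3, stood at 51.5 and 65.2 CPM in the muscle libraries and 31.5 CPM in spleen, on 79 UMIs in muscle library 1 and 31 in spleen. Its folds were 1.63 (1.07 to 2.56) and 2.07 (1.39 to 3.17), so muscle library 2 alone passed 2-fold and the gene was not called. It was seen in 64 and 78 muscle cells and 21 spleen cells.

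Tnfsf8, the gene of CD30 ligand, was the one member with a lower level in both muscle libraries. It had 2 UMIs in each muscle library and 22 in spleen, or 1.30 and 1.04 CPM in the muscle libraries and 22.4 CPM in spleen. The total of 26 UMIs is under the minimum for a call. The ratio of spleen over muscle, the inverse of the folds above, was 17.2 (4.22 to 150.6) for muscle library 1 and 21.5 (5.27 to 188.2) for muscle library 2. The muscle UMIs came from 2 cells of library 1 and 1 cell of library 2, and the spleen UMIs from 13 cells, of which 1 held 8. The receptor of this ligand, Tnfrsf8, was on the list of other receptors and was not measured.

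Among the adaptors Traf1 was called and Traf2 was not. Traf1, a TRAF without the RING domain of the others, stood at 253.7 and 331.9 CPM in the muscle libraries and 125.2 CPM in spleen, with folds of 2.03 (1.65 to 2.50) and 2.65 (2.18 to 3.24). Thinned cells held it in 19.3% and 22.4% of the muscle libraries and 10.4% of spleen. Its smaller fold sat at the threshold and was 1.98 without the cells that held a myeloid UMI. Without ribosomal protein genes in the totals the smaller fold was 1.81 for Traf1 and 1.87 for Tnfrsf1b, so both calls were lost there and 3 genes remained, Tnfrsf4, Tnfrsf18 and Tnfrsf9. Traf2, the adaptor that binds the cIAP proteins, stood at 39.1 and 36.5 CPM in the muscle libraries and 25.4 CPM in spleen. Its folds of 1.54 (0.9498 to 2.56) and 1.44 (0.898 to 2.37) have intervals that include 1. Birc3, which encodes the cIAP2 ubiquitin ligase, stood at 135.005 and 116.4 CPM in the muscle libraries and 79.4 CPM in spleen, with folds of 1.70 (1.30 to 2.24) and 1.47 (1.13 to 1.92). Both Birc3 folds exceed 1 by more than counting error and stay under 2, and thinned cells held it in 10.2% and 8.44% of the muscle libraries and 7.34% of spleen.

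Other lists of genes also differed between the tissues. They were chosen with earlier results of these data known, so their counts describe the tissues and are no independent support. By the 2-fold rule 7.47% of all measured genes were called higher and 3.45% lower. The 12 effector and tissue-state genes, such as Gzmb, Klrg1 and Il1rl1, summed to 19300 and 19388 CPM in the muscle libraries and 5064 CPM in spleen, and 12 of the 12 were called higher. The 9 resting lymphoid genes, such as Ccr7, Tcf7 and Klf2, summed to 826.99 and 794.2 CPM in the muscle libraries and 2329 CPM in spleen, with 6 of 8 measured genes called lower. Immediate early genes, which also answer to tissue handling, summed to 9960 and 9746 CPM in the muscle libraries and 5124 CPM in spleen, with 4 of 12 called higher and 1 lower. The part of digestion and handling in the receptor levels was not tested and cannot be told apart from the tissue.

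Markers of other cell types were also counted, and their part in the results was not tested unless a value without them is given. The 14 myeloid markers summed to 10 and 18 UMIs in the muscle libraries and 53 in spleen, of which 15 were Cd68 and 18 C1qa, and Adgre1 and S100a8 had 0 UMIs in each library. The spleen UMIs came from 5 cells, and without the cells with a myeloid UMI in any library 4 of the 9 genes stayed called, Traf1 being the one lost. Of all genes 7.58% were called higher there. Fibroblast markers gave 1 and 6 UMIs in the muscle libraries and 4 in spleen. At least 1 UMI of the CD8 and NK cell list was seen in 11.6% and 16.4% of muscle cells and 22.4% of spleen cells, mostly Cd8b1 and Nkg7, while Cd8a had 2 and 1 UMIs in the muscle libraries and 4 in spleen. Endothelial UMIs were all of Pecam1, in 7.57% and 7.35% of muscle cells and 13.9% of spleen cells, with Cdh5, Kdr, Emcn and Cldn5 at 0. B cell genes, mostly Cd22 and Cd79b, were seen in 7.86% and 10.7% of muscle cells and 10.8% of spleen cells, with Ms4a1 and Pax5 at 0. Muscle fibre genes were seen in 6.08% and 10.4% of muscle cells and 9.27% of spleen cells, and erythroid or platelet genes in 2.52% and 3.602% of muscle cells and 2.70% of spleen cells. The sort holds no cell type that lacks these receptors, so no background share could be read for them in another type. Acta1, an actin of muscle fibres that T cells do not make, was seen in 2.01% and 4.08% of thinned muscle cells and 2.32% of thinned spleen cells. The thinned shares of Tnfrsf1a, of 1.85% and 3.35% in the muscle libraries and 2.32% in spleen, are no larger than these, and those of Traf2, of 3.70% and 3.35% in the muscle libraries and 1.16% in spleen, are close to them. Little can thus be read from single cells about either gene. The thinned spleen share of Tnfsf8, of 2.70% (1.09 to 5.49), is also close to that of Acta1, so the same limit holds for Tnfsf8.

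The wider TNF receptor route was described with 6 lists of other genes. Their counts are to be read beside all measured genes, of which the 2-fold rule called 7.47% higher and 3.45% lower. Of 22 other TNF receptor genes 5 were measured and 0 were called in either direction. Cd27, a costimulatory receptor of lymphocytes, stood at 330.7 and 315.2 CPM in the muscle libraries and 275.8 CPM in spleen, and Fas, the death receptor, at 48.9 and 58.96 CPM in the muscle libraries and 86.5 CPM in spleen. The median log2 fold of these 5 was 0.23, against 1.12 for the 9 genes above.

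Of 17 other TNF ligand genes 6 were measured and 1 was called higher, Tnfsf9, the ligand of 4-1BB. It was 2.69-fold (0.988 to 9.14) and 2.56-fold (0.964 to 8.57) higher, on 5.09 CPM in spleen, and both intervals include 1. Tnf, the ligand of both TNF receptors, stood at 35.2 and 39.7 CPM in the muscle libraries and 32.6 CPM in spleen, and was not called.

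Among 10 measured TRAF and adaptor genes besides Traf1 and Traf2, 1 was called higher. This was Fadd, the adaptor of death receptors, at 15.7 and 18.8 CPM in the muscle libraries and 3.05 CPM in spleen, with folds of 5.13 (1.56 to 26.6) and 6.15 (1.94 to 31.2). Ripk1, the kinase of the TNFR1 complex, stood at 60.002 and 68.4 CPM in the muscle libraries and 123.1 CPM in spleen, with folds of 0.487 and 0.555, and was not called. Of 14 measured IAP, LUBAC and death-complex genes 1 was called higher, Rnf31, the catalytic subunit of the linear ubiquitin complex, with folds of 3.36 (1.56 to 8.30) and 2.50 (1.15 to 6.19). Birc2, which encodes cIAP1 and neighbours Birc3, stood at 80.9 and 78.8 CPM in the muscle libraries and 99.7 CPM in spleen. Of 10 measured kinases between TNF receptors and NF-kB 0 were called. Calls of 1 of 10 and 1 of 14 lie near the 7.47% of all measured genes called higher, so neither is a result about its list.

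The NF-kB subunits and inhibitors were the list with the most calls, 3 of 11 higher and 1 lower, against 7.47% and 3.45% of all measured genes. Nfkb2, the precursor of the p52 subunit of the alternative route, stood at 127.2 and 170.6 CPM in the muscle libraries and 21.4 CPM in spleen, with folds of 5.95 (3.79 to 9.83) and 7.98 (5.14 to 13.1). Nfkbie, an inhibitor of NF-kB, was 2.68-fold higher in each muscle library, at 73.7 and 73.6 CPM against 27.5 CPM in spleen. Nfkbia, the main inhibitor, had folds of 2.06 and 2.02, at the threshold. Rel went the other way, with folds of 0.439 and 0.485. Relb, the partner of p52, had folds of 1.26 and 1.70 and was not called. None of the list counts has a test, and the lists are background for the 10 genes.

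**Figure D2:**
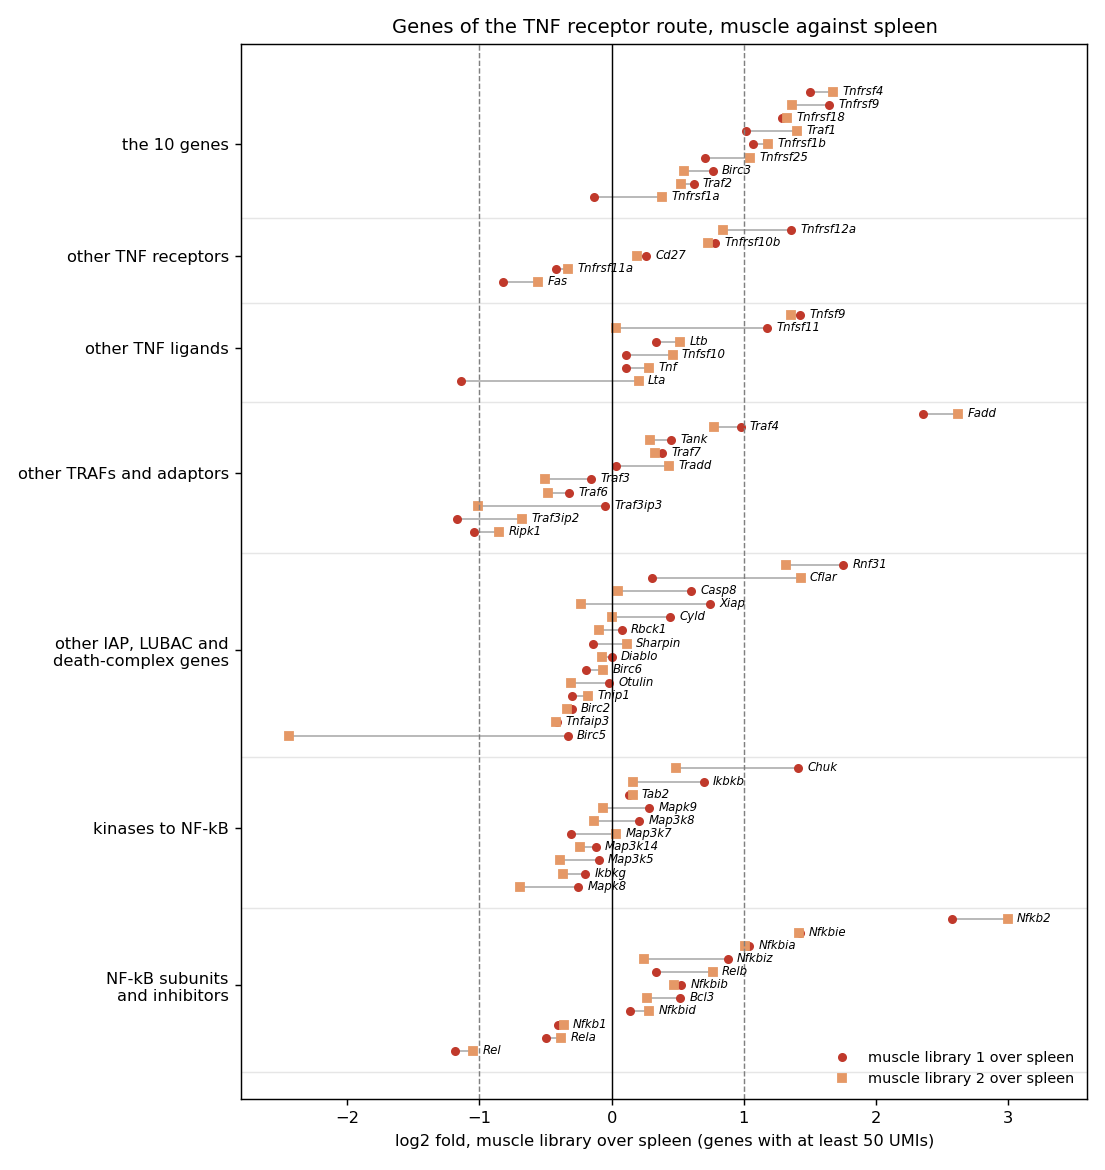
log2 fold of muscle library 1 over spleen (circles) and of muscle library 2 over spleen (squares) for each measured gene of the 10 and of 6 lists of other genes of the route. Dashed lines mark 2-fold in either direction. Of the 9 measured genes of the 10, 8 lie above 0 in both muscle libraries, while most genes of the other receptor, adaptor and kinase lists lie within 2-fold of spleen.

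Within a library, single cells differed in how many of the 10 genes they held. In cells thinned to 1000 UMIs the mean number was 2.43 and 2.40 in the muscle libraries and 1.19 in spleen. None of the 10 was seen in 7.25% and 8.01% of thinned muscle cells and 33.2% of thinned spleen cells. At the other end 4 or more were seen in 20.7% and 22.9% of muscle cells and 3.47% of spleen cells. Tnfrsf4, Tnfrsf18, Tnfrsf9 and Tnfrsf1b were seen together in 71 cells of muscle library 1, or 10.96% (8.66 to 13.6), in 70 cells of muscle library 2, or 10.2% (8.03 to 12.7), and in 5 spleen cells, or 1.93% (0.630 to 4.45). Without thinning the shares with these 4 together were 29.97% and 28.1% in the muscle libraries and 8.88% in spleen. Each of the 4 was itself seen in a larger share of muscle cells, and the joint share that this alone would give was not computed.

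**Figure D3:**
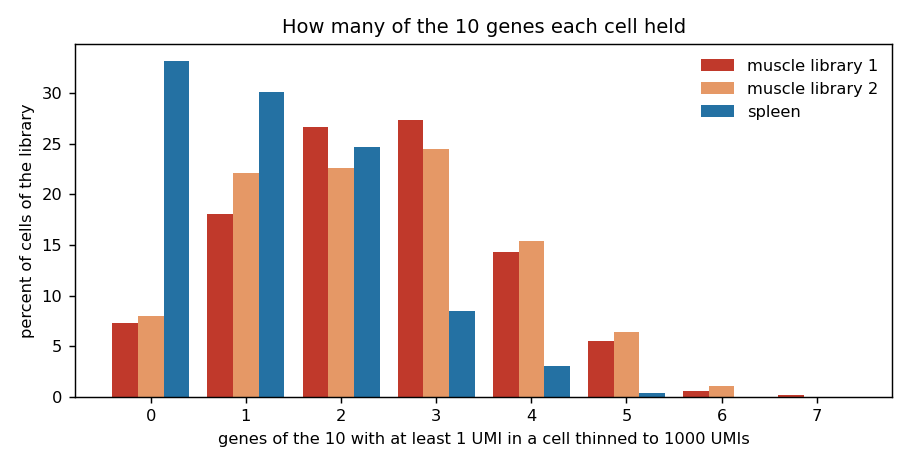
Percent of cells of muscle library 1, muscle library 2 and spleen, after thinning to 1000 UMIs, that held at least 1 UMI of 0 to 7 of the 10 genes. The bars of spleen are tallest at 0 genes (33.2%), and those of the muscle libraries at 3 genes (27.3% and 24.5%).

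Whether 2 of the genes were found in the same cell more often than their shares give was described by an odds ratio pooled over 5 bins of UMI depth, for genes seen in at least 5% of the cells of a library. Tnfrsf4 and Tnfrsf18 had odds ratios of 3.74 and 2.08 in the muscle libraries and 2.31 in spleen, and shared 1.10 times as many cells of muscle library 1 as their shares give. Tnfrsf4 and Tnfrsf9 had odds ratios of 2.41 and 2.35 in the muscle libraries and 3.66 in spleen. Tnfrsf18 and Tnfrsf9 had odds ratios of 2.38 and 2.79 in the muscle libraries and 1.79 in spleen. Each of these 3 pairs was thus above 1.5 in each of the 3 libraries. Taken singly, 16.4% and 15.6% of all gene pairs reached 1.5 in the muscle libraries and 25.2% in spleen.

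Over the 36 pairs of the 10 genes that could be compared in the muscle libraries, the median odds ratios were 1.17 and 1.38, and over 45 pairs in spleen the median was 1.45. The medians of all pairs of genes were 1.05 and 1.04 in the muscle libraries and 1.01 in spleen. In both muscle libraries 7 of the 36 pairs reached 1.5, against 3.08% of all 9502620 pairs. Besides the 3 pairs above these were Tnfrsf4 with Tnfrsf1b, at 1.74 and 1.95 in the muscle libraries and 1.96 in spleen, and Tnfrsf4 with Traf1, at 1.53 and 1.71 in the muscle libraries and 1.74 in spleen. The other 2 involved Tnfrsf25, which was tied to Tnfrsf4 at 2.27 and 2.55 in the muscle libraries and 0.639 in spleen, and to Tnfrsf9 at 1.58 and 2.38 in the muscle libraries and 0.814 in spleen. The spleen values of Tnfrsf25 rest on 21 cells, of which 9 also held Tnfrsf4, and their difference from muscle was not tested. When the cells had been thinned to 1000 UMIs, 3 of the 21 pairs still compared reached 1.5 in both muscle libraries. They were the 3 pairs of Tnfrsf4, Tnfrsf18 and Tnfrsf9, and the share of all pairs was not computed there.

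**Figure D4:**
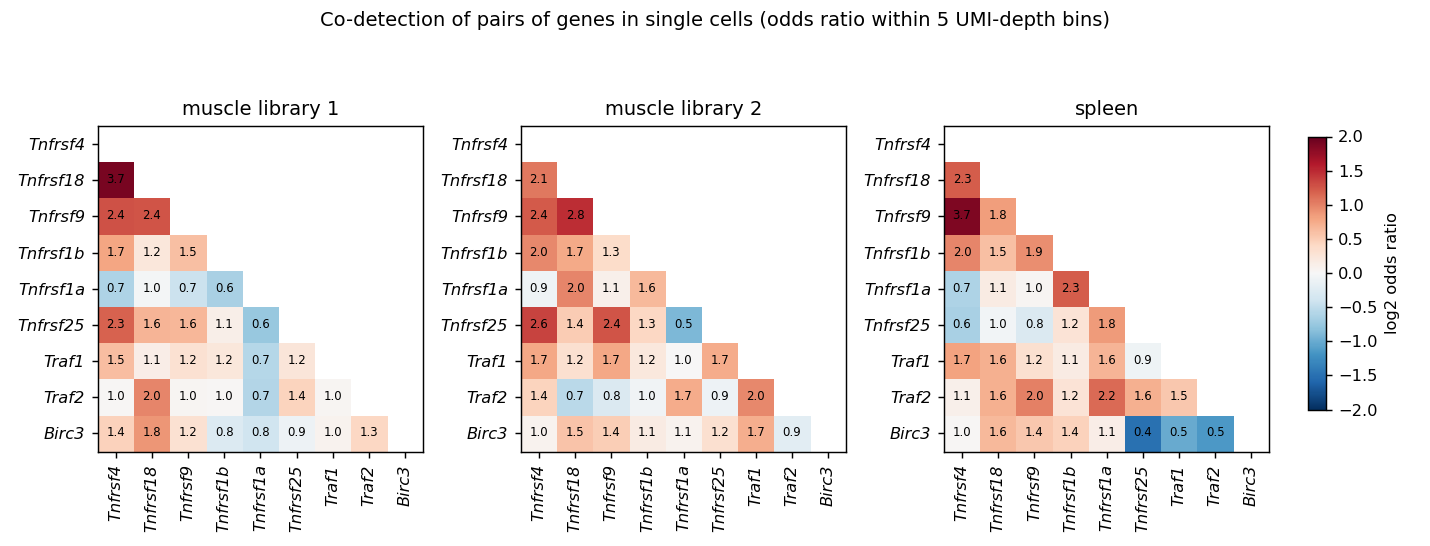
Odds ratio of finding 2 genes in the same cell, within 5 bins of UMI depth, for each pair of 9 of the genes in muscle library 1, muscle library 2 and spleen, colored by its log2. Tnfsf8 is left out, since it was in fewer than 5% of muscle cells. The pairs of Tnfrsf4, Tnfrsf18 and Tnfrsf9 lie at 1.79 or above in all 3 libraries.

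Across cells of a library, the level of a gene can also be set against that of every other gene. The measure was Pearson's r of log2 of counts per 10000 plus 1, averaged over the muscle libraries, among 4359 genes seen in at least 5% of the cells of each. The points share libraries and sequencing depth, so these values are descriptions. Among all of these genes the one most like Tnfrsf4 was Tnfrsf9, with r of 0.35 and 0.34 in the muscle libraries and 0.38 in spleen, and the second was Tnfrsf18, with 0.36 and 0.27 in the muscle libraries and 0.22 in spleen. Odc1, the rate-limiting enzyme of polyamine synthesis, Id2, an inhibitor of E-protein transcription factors, and Hopx, a homeodomain protein, followed, with mean r of 0.27, 0.26 and 0.24. The median r with Tnfrsf4 over all genes was 0.02. For Tnfrsf9 the closest genes were Tnfrsf4, Odc1, Id2, Tnfrsf18 and Hopx, at mean r of 0.35, 0.33, 0.31, 0.29 and 0.26. For Tnfrsf18 they were Tnfrsf4, Tnfrsf9 and Hopx, at 0.32, 0.29 and 0.20. No gene reached 0.2 in both muscle libraries for Traf1.

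Receptor levels also differed between cells with and without some partner genes, and a cut of 1.5-fold set which were picked. Levels were compared between cells with and without a UMI of each of 14 partner genes found in at least 20 cells of each muscle library. Tcf7, also listed, was found in 11 and 4 muscle cells and was set aside in muscle. A member at least 1.5-fold higher in cells with the partner in both muscle libraries was found for 4 partners. Cells with Ccr8, a chemokine receptor of tissue Tregs, held Tnfrsf9 at 2910 and 1869 CPM in the muscle libraries, against 1234 and 1068 CPM in cells without, a fold of 2.36 and 1.75. For Tnfrsf4 the folds were 1.81 (1.59 to 2.06) and 1.83 (1.63 to 2.05). These rest on 33 and 31 muscle cells with Ccr8, which were deeper than most (a median of 3459 and 3621 UMIs), and 6.35% of all genes compared met the same rule.

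Cells with Cd83, a surface protein of activated cells, held Tnfrsf4 at 2003 and 2295 CPM in the muscle libraries, against 1158 and 1300 CPM in cells without. The folds were 1.73 (1.58 to 1.90) and 1.77 (1.63 to 1.91), and 1.88 (1.54 to 2.28) in spleen. For Tnfrsf9 the folds with Cd83 were 1.65 and 1.57 in the muscle libraries and 1.64 in spleen, and 2.96% of all genes met the rule in muscle. Cells with Nfkb2 held Tnfrsf9 at 2.01-fold (1.83 to 2.19) and 1.66-fold (1.52 to 1.81) the level of cells without in the muscle libraries, and Tnfrsf4 at 1.501-fold (1.37 to 1.65) and 1.72-fold (1.59 to 1.85), with 2.27% of all genes meeting the rule. Cells with Il2ra, the high-affinity interleukin-2 receptor chain, held Tnfrsf9 at 1.51-fold (1.37 to 1.67) and 1.75-fold (1.59 to 1.93) the level of cells without, with 2.36% of all genes meeting the rule, while the spleen fold was 1.16 (0.955 to 1.41).

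Of the 10 genes, 8 had the 50 UMIs in each muscle library that this rule asks for, and Tnfrsf1a and Tnfsf8 were not compared. None of the 8 reached 1.5-fold in both muscle libraries in cells with Il1rl1, Klrg1, Gzmb, Areg, Ccr7, Nr4a1, Ikzf2, Cxcr3, Icos or Batf, where 2.09% of all combinations of a gene with these 10 partners passed. None of the 8 was 1.5-fold lower with any of the 14 partners, against 2.96% of all combinations. Missing the cut does not mean a fold of 1. Il1rl1, the interleukin-33 receptor of tissue Tregs, gave folds for Tnfrsf4 of 1.02 (0.927 to 1.13) and 1.21 (1.11 to 1.31) in the muscle libraries. Nr4a1 gave folds for Tnfrsf9 of 1.41 (1.26 to 1.57) and 1.57 (1.40 to 1.76) there. Cxcr3 went the other way, with folds for Tnfrsf4 of 0.807 (0.712 to 0.911) and 0.829 (0.750 to 0.914). In the spleen, cells with Ikzf2, which encodes Helios, held Tnfrsf1b at 3.06-fold (2.21 to 4.34), Tnfrsf9 at 2.63-fold (2.01 to 3.48) and Tnfrsf4 at 2.03-fold (1.60 to 2.59) the level of the 97 cells without. For Tnfrsf18 the spleen fold was 1.23 (0.997 to 1.53) and for Tnfrsf25 0.746 (0.344 to 1.68). The spleen cells with Ikzf2 were deeper, with a median of 3814.5 UMIs against 3028 in those without, and no share of all genes past a fold was computed for spleen. The same Ikzf2 folds in muscle were 1.01 and 1.10 for Tnfrsf1b, 1.23 and 1.32 for Tnfrsf9 and 1.32 and 1.53 for Tnfrsf4. The difference between the tissues was not tested. When cells had been thinned to 1000 UMIs, the 2 pairs with Cd83 stayed, those with Nfkb2 and Il2ra did not pass the rule, and the 2 pairs of Batf with Tnfrsf4 and Tnfrsf9 did. Ccr8 could not be judged there, since 15 and 10 thinned muscle cells held it.

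The tissues also differ in how resting or effector-like their Tregs are, so the receptors were read within ranges of cells. Cells of each library were ranked by the share of their UMIs in the 9 resting lymphoid genes and cut into 3 tiers of equal size, and separately by the share in the 12 effector genes. None of the 10 genes is in either list. In 225 and 232 cells of the lowest tier of the muscle libraries, and in 68 and 78 of the middle tier, the resting share was 0, so those muscle cells were divided between the tiers by their order in the table.

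For the 4 most abundant receptors each tier of either muscle library lay above each tier of the spleen. By resting share Tnfrsf4 lay between 983.8 and 1651 CPM over the muscle tiers and between 286.8 and 654.9 CPM over the spleen tiers. Tnfrsf18 lay between 942.6 and 1210.0 CPM in the muscle tiers and between 318.4 and 522.1 CPM in the spleen tiers. Tnfrsf9 lay between 1011 and 1669 CPM in muscle and between 223.8 and 611.7 CPM in spleen. Tnfrsf1b came closest to meeting, at 600.2 to 772.7 CPM in muscle and 185.98 to 494.3 CPM in spleen. By effector share the tiers hardly overlap between tissues, since these genes took 0.865% to 3.07% and 0.945% to 3.02% of the UMIs over the muscle tiers and 0.0202% to 1.13% over the spleen tiers. Over them Tnfrsf4 lay at 1106 to 1765 CPM in muscle and 431.8 to 569.1 CPM in spleen, and Tnfrsf1b at 646.7 to 791.4 CPM in muscle and 175.9 to 421.6 CPM in spleen.

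Within the spleen, the tier with the most of the resting genes held less of the 4 most abundant receptors than the tier with the least. The tier with the highest resting share held Tnfrsf4 at 0.438 (0.339 to 0.563), Tnfrsf9 at 0.366 (0.275 to 0.482) and Tnfrsf1b at 0.376 (0.274 to 0.510) of the level in the lowest tier, and Tnfrsf18 at 0.610 (0.472 to 0.785). Of all genes compared there, 11.6% were at least 2-fold lower, a size that Tnfrsf18 did not reach. The spleen ratios of Tnfrsf25, of 1.84 (0.553 to 6.98), and of Tnfrsf1a, of 0.748 (0.311 to 1.74), have intervals that include 1. In muscle the same ratios were 0.601 and 0.795 for Tnfrsf4, 0.617 and 0.822 for Tnfrsf9 and 0.834 and 0.899 for Tnfrsf1b. There 4.09% and 3.85% of all genes were at least 2-fold lower, a size that these muscle ratios did not reach. The resting genes took 0.226% and 0.208% of the UMIs in the highest muscle tiers and 0.516% in the highest spleen tier, so the tiers of the tissues are not alike. Taken singly, resting genes did not all give the order of the spleen tiers. Spleen cells with Tcf7 held Tnfrsf9 at 1.66-fold (1.35 to 2.03) the level of cells without. Their folds were 1.02 for Tnfrsf4, 0.828 for Tnfrsf18 and 0.622 (0.454 to 0.838) for Tnfrsf1b. With Ccr7 the spleen folds were 0.810 for Tnfrsf4, 0.863 for Tnfrsf18, 0.937 for Tnfrsf9 and 0.927 for Tnfrsf1b.

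The effector share gave a different order. In the spleen Tnfrsf1b stood at 421.6 CPM in the tier with the highest effector share and 175.9 CPM in the lowest, a ratio of 2.40 (1.75 to 3.33), where 13.5% of all genes were at least 2-fold higher. Those highest-tier cells were also deeper, with a median of 4404 UMIs against 3205, and the part of depth was not tested. Tnfrsf9 and Birc3 went the other way in spleen, with ratios of 0.555 (0.441 to 0.698) and 0.423 (0.240 to 0.730). There 6.8% of all genes were at least 2-fold lower, a size that Birc3 reached and Tnfrsf9 did not. Tnfrsf4 and Tnfrsf18 had ratios near 1 there, of 0.978 (0.775 to 1.24) and 1.04 (0.830 to 1.31). In the muscle libraries Tnfrsf4 was lower in the highest effector tier, with ratios of 0.690 (0.620 to 0.768) and 0.776 (0.710 to 0.849). There 5.18% and 5.3% of all genes were at least 2-fold lower, a size that Tnfrsf4 did not reach. The share of all genes at its smaller size was not computed. For Tnfrsf18 the muscle libraries disagreed, at 0.817 (0.727 to 0.918) and 1.19 (1.07 to 1.32), so no direction can be given for it. Tnfrsf1b, which rose in spleen, had muscle ratios of 0.975 (0.837 to 1.14) and 1.21 (1.06 to 1.39). Those of Tnfrsf9 were 0.671 (0.606 to 0.744) and 0.916 (0.823 to 1.02). Of the 22 Tnfsf8 UMIs in spleen, 19 lay in the tier with the lowest effector share and 0 in the highest. These UMIs came from 13 cells, of which 1 held 8, and cells with Tnfsf8 were not counted by tier.

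**Figure D5:**
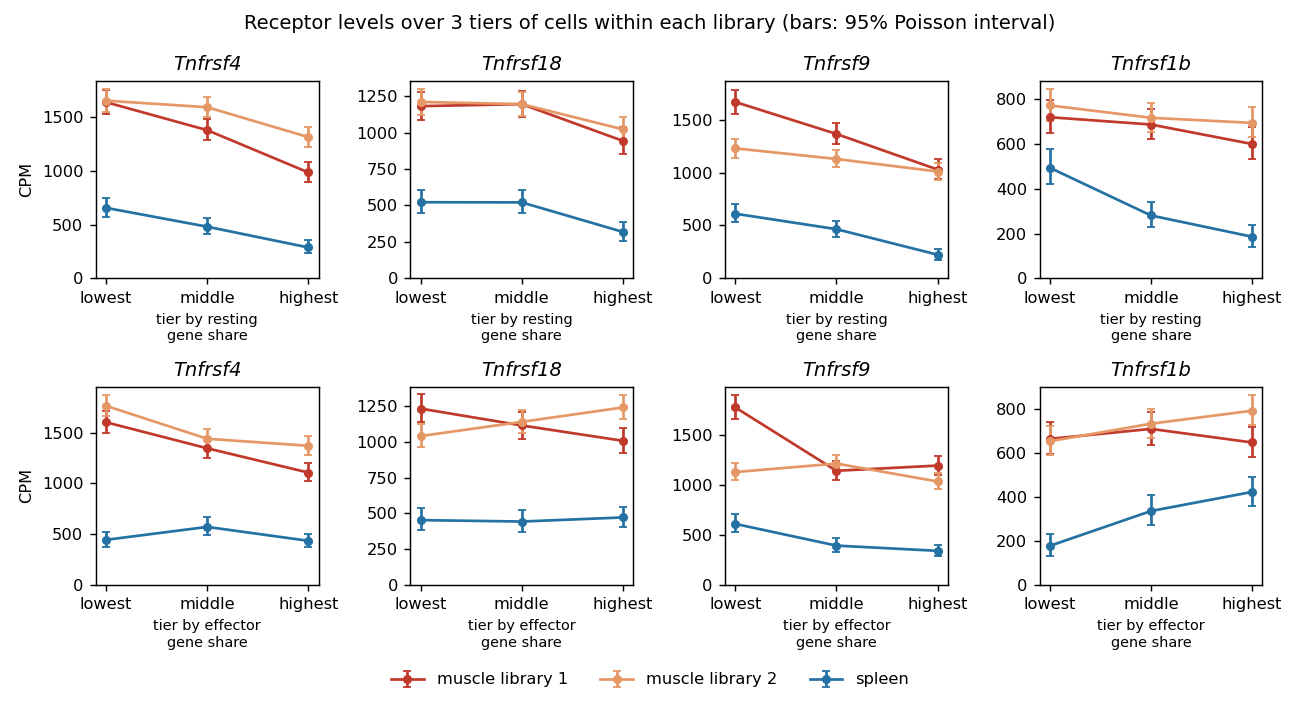
Level of Tnfrsf4, Tnfrsf18, Tnfrsf9 and Tnfrsf1b in CPM over 3 tiers of the cells of each library, ranked by the share of UMIs in resting genes (upper row) or effector genes (lower row), with exact 95% Poisson intervals. Each muscle point lies above each spleen point of its panel, and spleen Tnfrsf1b stands at 185.98 CPM in the highest resting tier and 494.3 CPM in the lowest.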

How the data were processed

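The deposited values are whole-number UMI counts, genes by cells, without normalization. Per the submitters' processing notes, mm10, TopHat2 and SAMtools were used, with no versions given. The sources used here give no annotation, strand setting, UMI collapsing step or cell filter. Cells were assigned to libraries by the labels, and every one of the 1627 cells was kept (756 to 9628 UMIs each), except in thinned values, which leave out the cells under 1000 UMIs. One UMI was worth 0.652 and 0.522 CPM in the muscle libraries and 1.02 CPM in spleen. Reads per UMI had medians of 24.4 and 44.7 in the muscle libraries and 55.0 in spleen. Doublets were not called in a sort of 1 cell type; 12 and 7 muscle cells and 0 spleen cells lay above 3 times the median depth of their library.

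Counts were summed per library. The call rule asked for a fold of 2 or more, in 1 direction, for each muscle library against spleen, and for 50 or more UMIs over the 3 libraries. Fold intervals are conditional binomial, levels Poisson and shares of cells binomial (Clopper-Pearson). Thinning was without replacement (seed 1). Co-detection used the Mantel-Haenszel odds ratio. The calling rule and the odds ratio were tested on simulated data. The simulated counts had Poisson spread alone, without differences between the muscle libraries or clustering of UMIs in cells. The odds ratio was simulated with far more cells than a library holds. The simulations thus do not show how either measure behaves under the spread of these data.

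Named are the 10 genes, up to 4 called genes of each of the 6 lists with the largest smaller fold, up to 5 closest genes by correlation (r of at least 0.2 in both muscle libraries) for Tnfrsf4, Tnfrsf18, Tnfrsf9 and Traf1, and the listed partner genes, 1 of which is not reported here. Other genes named beside them (Cd27, Fas, Tnf, Ripk1, Birc2, Relb, Tnfrsf8) were chosen after their values were seen. The members, lists, partners and tests were chosen with earlier results of these data known. Positions come from GENCODE M21 and promoter sequences from RefSeq on GRCm38.p6, matched by symbol for 10 of 10 genes. The motif letters and the printed stretches were chosen after the sequences had been looked at. Software was numpy 2.4.6, scipy 1.17.1, pandas 2.3.3 and matplotlib 3.10.9 under Python 3.11.15, while scaling factors came from DESeq2 1.42.0 and edgeR 4.0.16 under R 4.3.3.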

Additional observations from a re-analysis of the deposited data

How the results depend on the processing

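Of the 5 genes higher in muscle, Tnfrsf4, Tnfrsf18 and Tnfrsf9 kept their call with each scaling, with equal weight per cell, in thinned cells, without the cells above 3 times the median UMI count, without cells with a myeloid UMI (an alternative chosen after seeing the data) and with each muscle library alone. The count was 3 without ribosomal protein genes in the totals, where 5.63% of all genes were called higher. There the median log2 fold of the members was 0.97 and that of all genes shifted to -0.11. At 3-fold the count was 0, against 2.93% of all genes. It was 6 without muscle library 1 and 5 without muscle library 2, where 10.9% and 10.3% of all genes were called higher. Under the remaining alternatives the count ranged from 4 to 6. The share of all genes there ranged from 5.83% at a minimum of 200 UMIs to 15.9% at 1.5-fold. Traf1 was the gene lost with DESeq2 size factors, with equal weight per cell and without cells with a myeloid UMI. Thinning to 1000 UMIs raised the median to 1.24, exchanged Traf1 for Traf2 and took the log2 fold of Birc3 to 0.27; the cause was not tested. With a UMI minimum of 10 or none, 1 of the 10 genes was lower, Tnfsf8, on 2 UMIs in each muscle library. Of all genes 5.64% and 7.71% were lower there, so the count is no result about the 10 genes. Without depth bins the median odds ratio of muscle library 2 was 1.67 and 13 of 36 pairs reached 1.5 in both muscle libraries. Of the same 36, 7 did so with 5 bins and 6 with 10 bins, and in thinned cells 3 of 21 did. A share of all gene pairs was computed with 5 bins alone, so the other counts have none beside them. The 7 combinations of a member with a partner gene became 4 in thinned cells, of which 2 were shared and where Ccr8, in under 20 cells of each muscle library, was not compared. No called gene changed direction. Tnfrsf1a, which was not called, had a log2 fold of 0.13, which turned to -0.03 without ribosomal protein genes, -0.23 in thinned cells and -0.13 without muscle library 2. No paired analysis was possible because the spleen has 1 library and no test was made. With 26 Tnfsf8 and 155 Traf2 UMIs, depth limits what can be said of these genes.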
